A study of Mus musculus with 4 samples.

Results

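Most of the genes described here encode enzymes that add methyl groups to lysines of histones or enzymes that remove them. A few relatives with a SET domain that the name rule takes in act on other substrates or are thought to be inactive. They were taken by name from both deposited m6A peak lists: every row whose gene symbol starts with Kmt, Kdm, Setd, Nsd, Ehmt, Ezh or Suv39h, or is Ash1l or Dot1l. The rule found 44 genes of the 12182 genes with a peak in either list. They carried 148 of 20766 control peaks and 153 of 21179 knockout peaks. All 44 had a protein-coding RefSeq entry of the same symbol, and the descriptions in the files named a methyltransferase or demethylase for 28 of them. The other 16 were described by a domain, a complex or the name of a fly gene.

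Methylation of histone lysines marks the state of chromatin. The mark on H3K4 is known from active promoters and enhancers, those on H3K36 and H3K79 from transcribed gene bodies, and those on H3K9, H3K27 and H4K20 from silent or compacted chromatin. Most writers carry a catalytic SET domain, DOT1L being the exception, and the erasers are either flavin-dependent enzymes of the LSD type or iron-dependent JmjC enzymes. In the heart, KMT2D, EZH2, DOT1L and KDM6A are known for their part in development. N6-methyladenosine (m6A), the modification measured here, sits on the RNA and not on the histone, and WTAP is a regulatory subunit of the complex that writes it.

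The data came from hearts of mice 4 days old, of the genotypes Wtapflox/flox (called control, RNA pooled from 7 mice) and Wtap-CKO (called knockout, from 8 mice). Each pool gave 1 m6A immunoprecipitation (IP) and 1 input library, and the authors called 1 list of peaks per genotype. The Cre line behind the knockout, the sex of the mice and the sorting of cells, if any, were not stated in the labels or design text, and the labelled tissue is whole heart. Since each genotype was 1 pooled pair, differences between the lists have no replicate check and were not tested. Where a share carries an interval, it is an exact 95% interval that reflects counting error alone. It treats peaks as independent, which peaks of the same gene are not. Read totals are no part of the lists, and library depth was therefore unknown. Transcript levels were not analysed here, so less m6A on an RNA and less of that RNA cannot be told apart. In whole hearts, fewer cells of a type and less RNA per cell cannot be told apart either. The targeted gene, Wtap, had 3 control and 4 knockout peaks, which do not check its deletion. All 12 cardiomyocyte markers looked for, among them Myh6, Tnnt2 and Actc1, had peaks in both lists. Of their peaks, 22 of 53 in the control and 2 of 32 in the knockout list had no counterpart in the other, against 23.9% and 24.5% of all peaks. For fibroblast markers it was 1 of 10 and 8 of 17, and for endothelial markers 2 of 11 and 5 of 12. For smooth muscle and pericyte markers it was 2 of 17 and 4 of 18, and for immune markers 1 of 5 and 1 of 4.

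Of the 44 genes, 40 (90.9%, 95% interval 78.3 to 97.5) had peaks in both lists. Over all genes with a peak this was 77.6%. These shares were not matched for the number of peaks per gene, which was higher in the group (given below). The part that this number has in the difference was not tested. Peaks in the control list only were found for 2 genes, Kdm7a and Suv39h1, against 10.5% of all genes. Peaks in the knockout list only were found for 2 genes, Ezh1 and Setd4, against 11.9% of all genes. Of 47 enzyme genes listed by role, Kdm4c, Kdm4d and Kdm8 had no peak in either list. The number of peaks was higher in the control list for 11 genes, higher in the knockout list for 15, and equal for 18. These counts were not made over all genes. At a q of 0.001 in place of the authors' 0.05, the control-only genes were 6, with Ezh2, Kdm6a, Setd7 and Setdb2 added, and Ezh1 was the 1 knockout-only gene. The added genes had knockout peaks at 0.05 that missed this cut. It kept 132 of 148 control and 120 of 153 knockout peaks of the group. The share over all genes at this q was not computed, so these counts have no reference.

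These genes carried many peaks. A gene of the group had a median of 3 peaks in each list, against 2 over all genes. Of 42 genes of the group in the control list, 23 (54.8%) had 3 or more, a number that 22.9% of all genes with a control peak reached. In the knockout list 25 of 42 (59.5%) did, against 23.2% of all genes. Of the group, 9 genes had 6 or more control peaks (21.4%, against 2.17% of all genes) and 8 had 6 or more knockout peaks (19.0%, against 2.07%). Kmt2d led with 11 peaks in each list, ahead of Kmt2a with 10 control and 8 knockout peaks. Transcript length was not used here, so peaks per base of transcript were not compared.

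**Figure D1:**
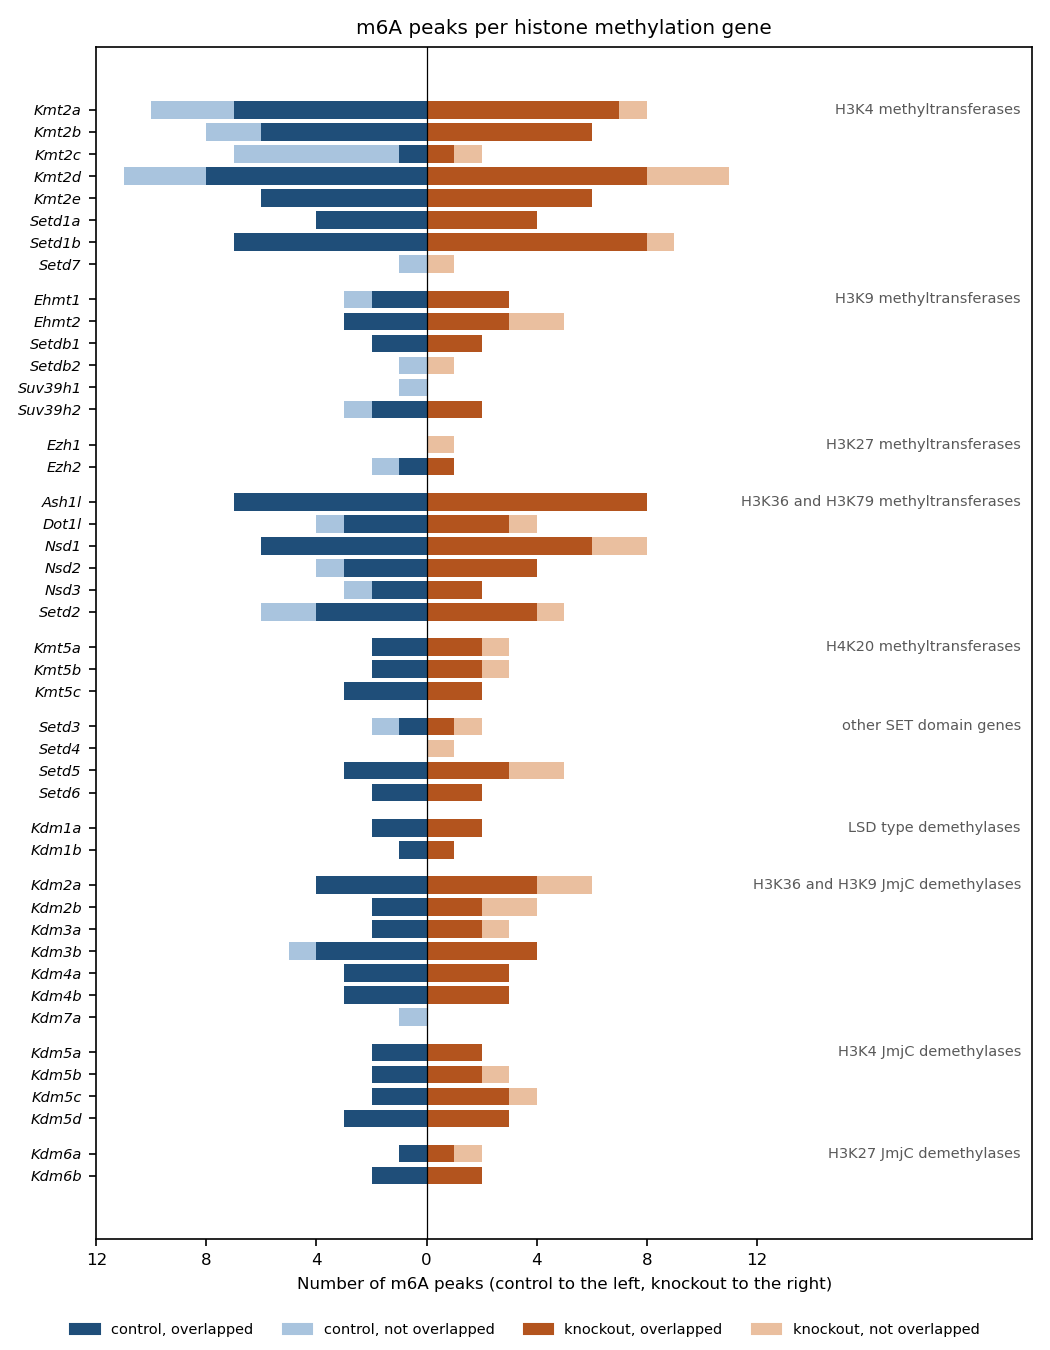
Number of m6A peaks of each of the 44 genes, control to the left and knockout to the right, dark where a peak of the other list overlaps and pale where none does. Kmt2c has 7 control peaks of which 1 is dark, and Kmt2e has 6 dark peaks on both sides.

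A control and a knockout peak were called overlapping when they had 1 or more exonic bases in common on one strand. Of the control peaks of the group, 28 of 148 (18.9%, 13.0 to 26.2) had no overlapping knockout peak, against 23.9% of all control peaks. Of the knockout peaks, 29 of 153 (19.0%, 13.1 to 26.1) had no overlapping control peak, against 24.5% of all knockout peaks. Both intervals contain the share over all peaks. This changed under 2 settings. Without Kmt2c, which held 6 of the 28 control peaks, the control share was 22 of 141 (15.6%, upper end of the interval 22.7), below the 23.9% of all. With q at or under 0.001 in both lists, the knockout share was 13 of 120 (10.8%, 5.90 to 17.8), below the 22.2% of all knockout peaks at that q. With an overlap of 50% of both peaks, the control share was 30.4% (23.1 to 38.5), and the share of all lay at the upper end, at 38.5%. In 13 genes every peak of both lists overlapped, among them Kmt2e, Ash1l, Setdb1, Kdm1a, Kdm4a, Kdm4b and Kdm6b. The share of such genes over all genes was not computed, so whether 13 is many or few is not known.

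Strength, fold and width of the peaks were described within each list. The authors' q of a peak is given here as its log10, and a peak with a q at or under 1e-10 is called strong. Strong peaks made up 77 of 148 control peaks of the group (52.0%, against 48.0% of all) and 63 of 153 knockout peaks (41.2%, against 43.2%). The median fold was 8.08 in the control list (7.22 over all its peaks) and 6.36 in the knockout list (7.03). Folds in the highest 25% of the list were found for 24.3% of control peaks (25.1% of all) and 20.3% of knockout peaks (26.2%). A single exonic block made up 114 control peaks (77.0%, against 78.8%) and 116 knockout peaks (75.8%, against 76.7%). The median peak covered 330 exonic bases in the control list (270 over all its peaks) and 270 in the knockout list (241). The median log10 q was -11.6 (all -9.17) for control peaks and -6.81 (all -7.69) for knockout peaks.

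The peaks found in 1 list only were weak ones. Their log10 q had a median of -3.75 (control) and -2.84 (knockout), and that of overlapped peaks was -18.6 and -10.4. Over all genes the same medians were -3.73 and -3.20 for unshared and -13.3 and -11.9 for overlapped peaks, so weak unshared peaks are a trait of both lists. Of 77 strong control peaks of the group, 0 lacked a knockout counterpart (0%, 0 to 4.68), against 8.72% of all strong control peaks. Of 63 strong knockout peaks, 0 lacked a control counterpart (0%, 0 to 5.69), against 4.04% of all strong knockout peaks. The interval of the control share lies below the share over all genes, and that of the knockout share contains it. The strong threshold was chosen with earlier results of these data known, so these intervals are no independent test. Strong peaks of the same gene are not independent, so these intervals and those below may be too narrow. The strongest control peak without counterpart lay just outside the threshold, in Nsd2 (log10 q -9.97), and the strongest such knockout peak was in Dot1l (log10 q -6.85). The weakest peaks that counted as strong were in Kmt2e in the control list (-10.7) and in Kdm5c in the knockout list (-10.3). When only peaks with a fold of at least 4 were kept in both lists, 10 of 71 strong control peaks (14.1%, 6.97 to 24.4) had no counterpart, against 21.2% of all, which the interval contains. When 50% of each peak had to be covered by the other, 7 of 77 (9.09%, 3.73 to 17.8) had none, against 20.7%. At a threshold of 1e-05 in place of 1e-10 it was 4 of 105 (3.81%, 1.05 to 9.47), against 13.0%. At a threshold of 1e-20 it was 0 of 57 (0%, 0 to 6.27), and the share over all such control peaks was 6.27% as well. The knockout interval lay below the share of all strong knockout peaks under 3 settings: a fold of at least 4 (2 of 60, upper end 11.5, against 13.6%), the 50% overlap (1 of 63, upper end 8.53, against 14.2%) and a threshold of 1e-05 (2 of 88, upper end 7.97, against 9.02%).

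**Figure D2:**
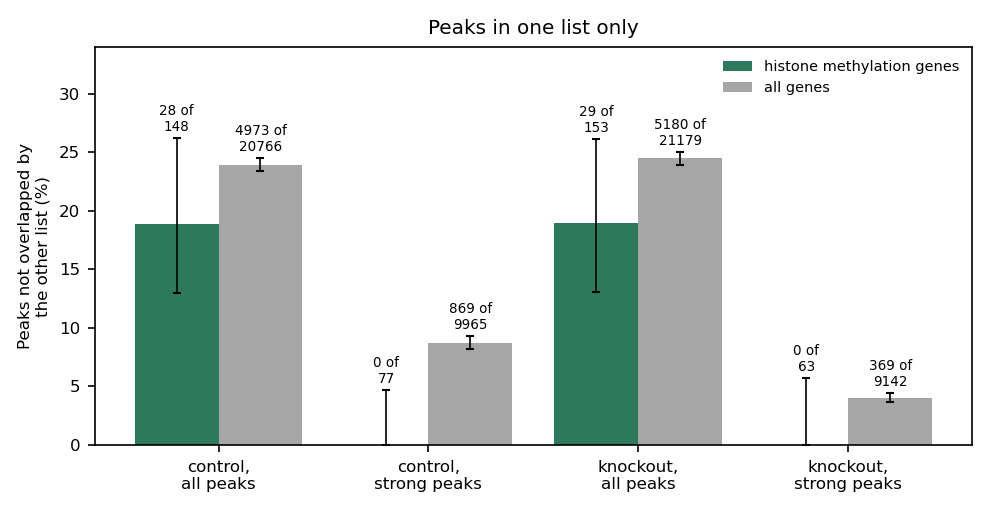
Share of peaks without an overlapping peak in the other list (%), for the histone methylation genes (green) and all genes (grey), with exact 95% intervals and the counts above each bar. The green bars for strong peaks stand at 0 of 77 and 0 of 63.

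A counterpart was often weaker than the threshold. Of the 77 strong control peaks, 19 (24.7%) had no strong knockout counterpart, against 27.3% of all strong control peaks. Of the 63 strong knockout peaks, 5 (7.94%) had no strong control counterpart, against 20.2% of all strong knockout peaks. The shares over all include peaks without any counterpart, 8.72% of all strong control and 4.04% of all strong knockout peaks. The group had no such strong peak, so its shares, of weaker counterparts only, are not like for like with those over all. With those peaks left out, the control share over all lies below the 24.7% of the group. The knockout share over all then still lies above the 7.94% of the group. The 19 lay in 15 genes and included a Dot1l peak whose log10 q was -66.1 (control) and -4.95 (knockout), and an Nsd1 peak with -30.0 and -4.47. The 5 lay in Kdm2a, Kdm4b, Kmt2b, Kmt5a and Nsd3. Since the lists were called separately and their depths are unknown, a smaller q in one list does not measure more m6A.

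**Figure D3:**
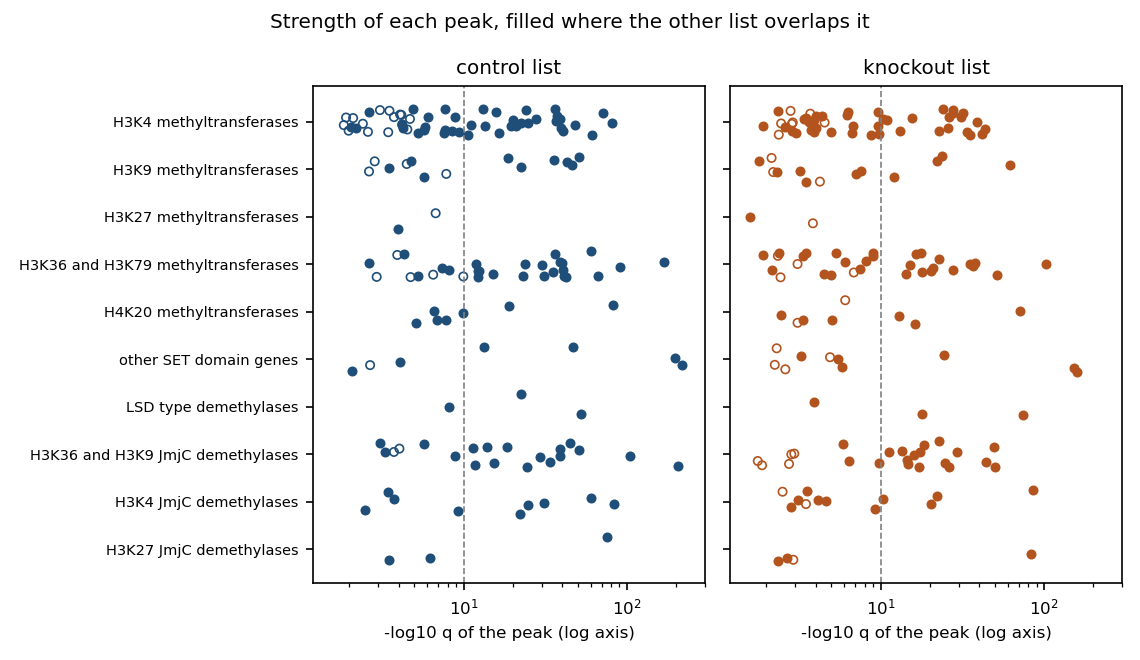
Strength of every peak of the group as -log10 q on a log axis, by role, in the control (left) and knockout list (right), with the strong threshold dashed. Open circles, the peaks without counterpart, all stand left of the dashed line, and the one nearest to it is the Nsd2 peak of the control list.

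The H3K4 methyltransferases held the most peaks, 54 in the control and 47 in the knockout list, and all 8 genes had peaks in both lists. Kmt2a to Kmt2d encode the catalytic subunits of the MLL complexes at promoters and enhancers. Kmt2d, the enhancer enzyme mutated in Kabuki syndrome, had 8 shared peaks in each list. Its strongest control peak, on chromosome 15 at 98737285 to 98738214, had a fold enrichment of IP over input of 10.8 (log10 q -71.0), and the knockout peak there had 6.81 (-35.1). Its strongest knockout peak lay at 98741507 to 98742166 with a fold of 13.5 (-43.3), over a control peak with 11.7 (-40.6). Here as elsewhere a fold is the value the authors' caller gave to a peak within its own list. The 3 control-only and 3 knockout-only peaks of Kmt2d had log10 q values between -4.54 and -2.60.

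Kmt2c, the closest relative of Kmt2d, had the most unequal lists, with 7 control and 2 knockout peaks. Only its most 3' control peak, on chromosome 5 at 25489456 to 25489965, was overlapped (fold 8.72 and log10 q -13.1 for the control, 9.07 and -11.0 for the knockout). The other 6 control peaks stretched 5' from it to 25578308, and their log10 q lay between -4.70 and -1.85. The strongest of the 6, at 25504076 to 25504226, had a fold of 3.94. The other knockout peak, at 25500488 to 25503926, fell between control peaks and had a log10 q of -2.86. These 6 were the most control peaks without counterpart of any gene of the group.

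Kmt2a, the founding MLL gene, shared 7 peaks in each list. Its strongest control peak (chromosome 9, 44716901 to 44717290) had a fold of 8.02 and a log10 q of -37.1, against 10.1 and -22.8 in the knockout. It had 3 control-only peaks with a log10 q of -3.75 or weaker and 1 knockout-only peak at -2.46. Kmt2b had 8 control and 6 knockout peaks, and the strongest was a shared one of 780 and 750 exonic bases (chromosome 7, fold 28.5 and log10 q -80.6 for the control, 11.2 and -41.7 for the knockout). Kmt2e, whose product is thought to bind rather than methylate histones, kept all 6 peaks in both lists. The strongest of them had a control fold of 7.45 and a knockout fold of 5.65.

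Setd1a and Setd1b encode the catalytic subunits of the SET1 complexes, which lay down most of the trimethyl mark at promoters. All 7 control peaks of Setd1b were overlapped, and 8 of its 9 knockout peaks were. Its strongest peak, on chromosome 5 at 123296569 to 123296899, had a control fold of 7.25 (log10 q -36.6) and a knockout fold of 12.1 (-27.6). All 4 peaks of Setd1a were shared in both lists, but 2 control and 3 knockout peaks also overlapped listed peaks of the predicted gene Gm49388 on the same strand, and the lists do not tell these genes apart. Setd7, a monomethyltransferase of H3K4 and of other proteins, had 1 weak peak in each list and no overlap. The control peak lay at the 3' side (chromosome 3, 51428610 to 51428790, log10 q -3.08) and the knockout peak at the 5' side (51468030 to 51468120, -2.38).

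Among the H3K9 methyltransferases, 9 of 13 control and 10 of 13 knockout peaks were shared, against 76.1% and 75.5% of all peaks. Ehmt1 and Ehmt2 encode GLP and G9a, which act as a pair and write mono- and dimethyl marks. A 3-block peak of Ehmt2 on chromosome 17 at 35122300 to 35124505 had identical edges in both lists, the 1 identical pair among 104 of the group (0.962%, against 9.53% of all pairs), with a control fold of 9.08 (log10 q -42.7) and a knockout fold of 17.3 (-61.6). Ehmt2 also had 2 knockout-only peaks, both 3' of its control peaks (log10 q -4.25 and -2.20). The strongest control peak of Ehmt1, 630 exonic bases on chromosome 2 (fold 9.13, log10 q -45.9), faced 2 knockout peaks with folds of 1.94 and 5.72. Setdb1, which silences retroelements with TRIM28, shared both peaks (fold 7.90 and log10 q -50.7 in the control against 3.24 and -22.1 in the knockout for the stronger). Setdb2 had 1 weak peak in each list without overlap (log10 q -4.49 and -2.15).

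Suv39h1 and Suv39h2 encode the trimethylases of pericentric heterochromatin. Suv39h1 had a single peak, in the control list only, on the X chromosome at 7937212 to 7937481 (fold 5.88, log10 q -7.84). A control peak of the predicted gene Gm14820 lay at the same place on the other strand, and the sources used here do not say whether the counting used strand. Suv39h2 had 3 control and 2 knockout peaks. Its strongest, on chromosome 2 at 3465411 to 3465831, had a control fold of 14.8 (log10 q -18.8) and a knockout fold of 17.8 (-7.61), and a control-only peak lay at its 5' side (log10 q -2.86).

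The H3K27 methyltransferases Ezh1 and Ezh2, alternative catalytic subunits of Polycomb repressive complex 2 (PRC2), carried no strong peak in either list. Ezh2, the form of dividing and fetal cells, had 2 control peaks. The one on chromosome 6 at 47571851 to 47572155 was overlapped (fold 18.4 and log10 q -3.97 for the control, 6.10 and -1.59 for the knockout), and the one at 47554518 to 47554698 was not (fold 5.51, log10 q -6.75). Ezh1, the form of resting adult cells, had 1 knockout peak on chromosome 11 at 101083321 to 101083471, with a fold of 4.34 (log10 q -3.85), but no control peak. The unshared peak of Ezh2 was thus in the control and that of Ezh1 in the knockout list, both weak.

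Of the H3K36 and H3K79 methyltransferases, 20 of 30 control peaks and 14 of 31 knockout peaks were strong, against 48.0% and 43.2% of all peaks. Nsd1, the Sotos syndrome gene and a dimethylase of H3K36, kept all 6 control peaks. One of them, on chromosome 13 at 55361380 to 55361920, had the highest fold of the group in the control list, 137 (log10 q -40.2), and the knockout peak there had 39.4 (-16.4). The strongest Nsd1 peak by q was the most 3' one, at 55461070 to 55461850 (fold 19.8 and log10 q -168 for the control, 12.9 and -103 for the knockout). Nsd1 also had 2 knockout-only peaks with log10 q of -3.10 and -2.44. Nsd2, a dimethylase lost in Wolf-Hirschhorn syndrome, had the strongest unshared peak of the group, on chromosome 5 at 34034150 to 34034450 (fold 3.51, log10 q -9.97). Nsd3 had 2 shared peaks in each list, and both were wider in the knockout list (811 against 601 and 420 against 301 exonic bases).

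Setd2, the main trimethylase of H3K36, had 6 control and 5 knockout peaks, of which 4 in each list were shared. Its strongest peak, on chromosome 9 at 110401133 to 110403277, had a control fold of 6.94 (log10 q -59.9) and a knockout fold of 7.12 (-36.5). Its 2 control-only peaks had a log10 q of -6.52 and -2.94, and a knockout-only peak lay at the 3' side (-2.35). Ash1l kept all 7 control peaks, overlapped by 8 knockout peaks, with the strongest at the 3' end (fold 5.57 and 4.45, log10 q -38.7 and -35.2). One peak of Ash1l in each list also overlapped a peak of Dap3, a gene on the other strand. Dot1l, the sole known H3K79 methyltransferase, shared 3 of 4 peaks in each list. Its strongest peak (chromosome 10, 80626712 to 80627191) had a control fold of 6.73 (log10 q -91.2) and a knockout fold of 4.36 (-51.6). A Dot1l peak at 80629381 to 80629829 covered 449 exonic bases in the control and 150 in the knockout list. The strongest knockout-only peak of the group, at 80591040 to 80591249 (fold 3.80), lay 5' of all control peaks of Dot1l.

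**Figure D4:**
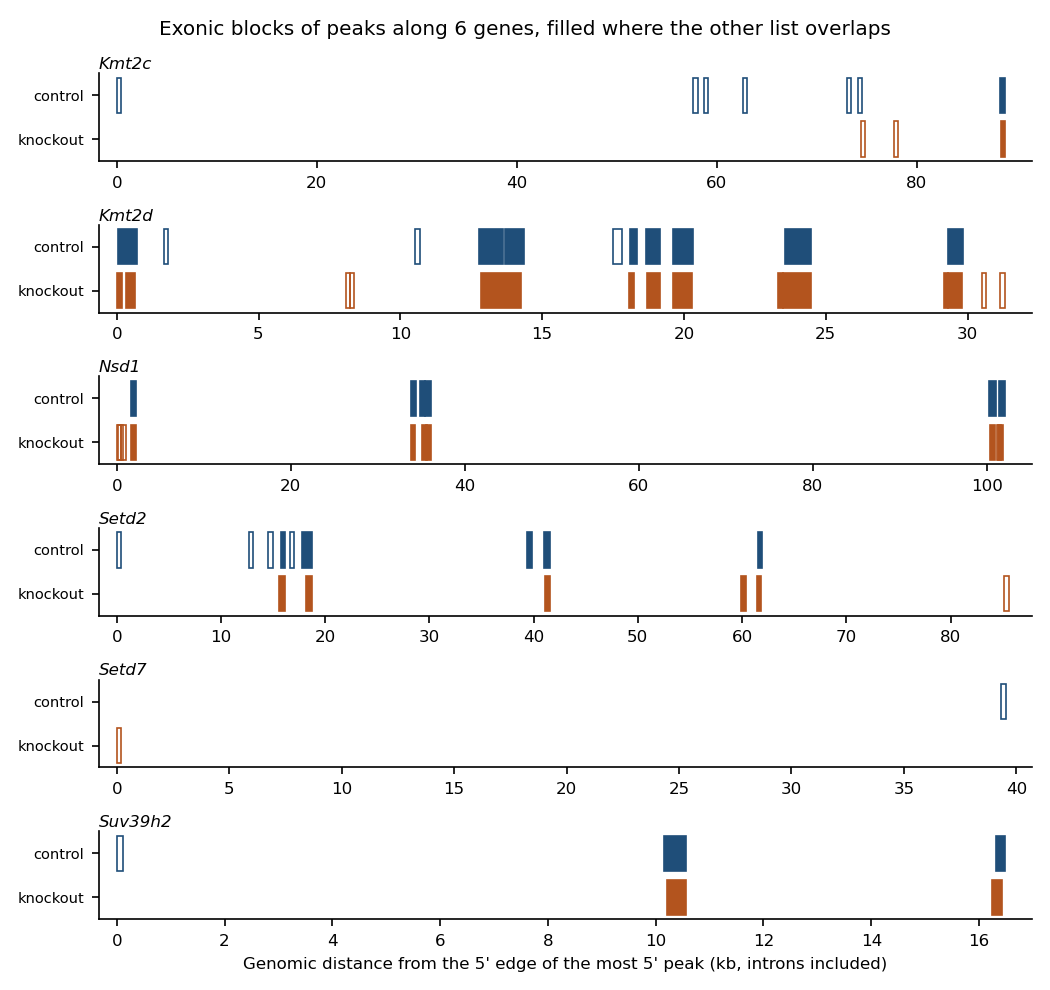
Exonic blocks of all peaks of 6 genes, placed by genomic distance in kb from the 5' edge of the most 5' peak, filled where the other list overlaps the peak and open where it does not. Very narrow blocks are drawn slightly wider so that they can be seen. In Kmt2c the open control blocks lie 5' of the 1 filled pair, and in Setd7 the single peaks of the lists lie at opposite ends.

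All 7 control peaks of the H4K20 methyltransferases were shared, and 6 of their 8 knockout peaks were, against 76.1% and 75.5% of all peaks. Kmt5b, a writer of the di- and trimethyl marks, carried the widest peak of the group, of 1710 exonic bases in the control list (chromosome 19, 3864255 to 3865964, fold 18.7, log10 q -82.2) and 1501 in the knockout list (16.2, -71.1). A knockout-only peak of Kmt5b lay far 5' of it (3818132 to 3818578, fold 18.8, log10 q -6.07). Kmt5a, the sole monomethyltransferase of H4K20, had a knockout peak of 601 bases (fold 23.4, log10 q -16.3) over a control peak of 241 bases (6.12, -7.76). Kmt5c had 3 control peaks, 2 of which met the same knockout peak.

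Among the remaining SET domain genes, Setd5, linked to intellectual disability, and Setd3, whose product methylates a histidine of actin, carried the 2 peaks of smallest q within the group in the knockout list. Among the control peaks of the group the Setd5 peak was also the first, and a Kdm2a peak came between it and that of Setd3. The Setd5 peak on chromosome 6 at 113127147 to 113128717 had a control fold of 13.9 (log10 q -217) and a knockout fold of 11.6 (-159). The Setd3 peak on chromosome 12 at 108073556 to 108074823 had 8.17 (-198) and 6.36 (-153). Setd5 had 2 weak knockout-only peaks, and Setd3 had 1 weak unshared peak in each list. Setd6 shared both peaks, and Setd4 had 1 peak, in the knockout list only (chromosome 16, 93387233 to 93387532, fold 14.1, log10 q -2.61).

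Few control peaks of the demethylases were unshared. Of 35 control peaks in 15 demethylase genes, 2 (5.71%, 0.700 to 19.2) had no knockout counterpart, while 26 of 113 (23.0%, 15.6 to 31.9) had none in the 29 other genes, against 23.9% of all control peaks. These intervals overlap, peaks of a gene are not independent, and 6 of the 26 lay in Kmt2c. Of knockout peaks, 8 of 42 (19.0%, 8.60 to 34.1) in demethylase genes and 21 of 111 (18.9%, 12.1 to 27.5) in the others had no control counterpart, against 24.5% of all. The 2 control peaks were a weak 3' peak of Kdm3b (log10 q -4.05) and the single peak of Kdm7a (chromosome 6, 39119992 to 39120141, fold 17.6, log10 q -3.75), which encodes a demethylase of H3K9 and H3K27.

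Kdm1a, which encodes LSD1, the flavin-dependent eraser of the CoREST complex, shared both peaks, and its 5' peak (chromosome 4, 136329675 to 136330034) had a control fold of 26.9 (log10 q -52.5) and a knockout fold of 40.5 (-74.6). Its relative Kdm1b had 1 shared peak (fold 11.2 and 8.13). Kdm2a, an H3K36 demethylase that binds unmethylated CpG islands, had the highest fold of the group in the knockout list, 52.0, at 4374370 to 4374940 on chromosome 19, over a control peak with 9.40. The log10 q there was -44.9 in the control and -49.1 in the knockout list. At another Kdm2a peak, at 4368912 to 4369302, the fold was 11.2 (log10 q -205) in the control list and 3.53 (-44.2) in the other. Kdm2b, which brings a Polycomb complex to CpG islands, had a 3' peak with a control fold of 54.5 and a knockout fold of 13.1, and a 5' peak with 3.65 and 26.3 (log10 q -3.29 and -5.92).

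Kdm3a and Kdm3b, erasers of H3K9 methylation, had 2 and 5 control peaks, of which 2 and 4 were shared. Kdm3a had a knockout-only peak at its 5' side (fold 13.1, log10 q -2.75). Kdm4a and Kdm4b, which act on H3K9 and H3K36, shared all 3 peaks in each list. The strongest, in Kdm4b on chromosome 17 at 56709303 to 56709870, had a control fold of 22.1 (log10 q -105) and a knockout fold of 11.6 (-50.2).

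Every control peak of the H3K4 erasers Kdm5a to Kdm5d was shared, 9 in all, against 76.1% of all control peaks. Of their 12 knockout peaks 10 were shared, against 75.5% of all. Kdm5c had 2 control and 4 knockout peaks, and its strongest one on the X chromosome (151055147 to 151056481) had a control fold of 9.78 (log10 q -83.5) and a knockout fold of 10.3 (-85.3). The strongest Kdm5b peak had 11.1 (-60.4) and 6.64 (-20.2), and was 660 bases wide in the control against 391 in the knockout. Kdm5d, the Y-linked copy of Kdm5c, had 3 peaks in each list, all shared and none strong. The sources used here do not say how reads were assigned between such copies. Kdm6a and Kdm6b erase H3K27 methylation. Kdm6b had a broad peak on chromosome 11 at 69295109 to 69296098 (990 bases, fold 19.7, log10 q -75.5) in the control and of 1140 bases (24.9, -83.8) in the knockout. Kdm6a had weak peaks, 1 in the control and 2 in the knockout list.

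Where 1 control peak met 1 knockout peak of the same gene, the widths could be compared. Of 104 such pairs in the group, the control peak was wider in 63 (60.6%), the knockout peak in 34 (32.7%), and 7 were equal. Over all 13227 pairs the control peak was wider in 43.8% and the knockout peak in 42.2%. The median width in the group was 360 exonic bases in the control and 331 in the knockout list, and the median difference was 30.0 bases, against 0 over all pairs. Together the control peaks of the group covered 57186 exonic bases and the knockout peaks 52927. The total over all peaks was lower in the knockout list too, with 7474725 exonic bases in the control and 7049045 in the knockout list. Pairs of the same gene are not independent, and widths move with depth, whose part was not tested. In all, 10 control peaks (6.76%, against 7.21% of all) were overlapped by more than 1 knockout peak, and 6 knockout peaks (3.92%, against 6.23%) by more than 1 control peak. Of these, 3 and 2 lay in Setd1b, and 2 and 2 in Setd1a, where the second overlapping peak is listed under Gm49388.

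**Figure D5:**
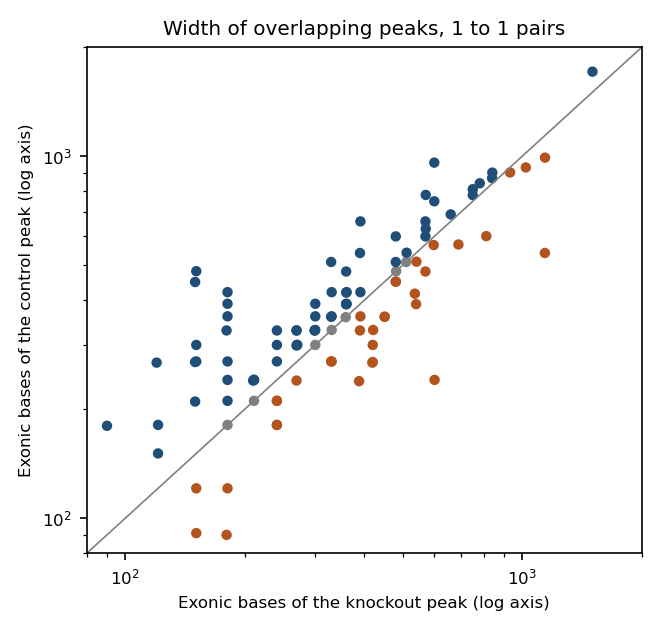
Exonic bases of the control peak against the knockout peak for 104 pairs on log axes, blue where the control peak is wider, orange where the knockout peak is wider and grey where they are equal. More pairs (63) lie above the diagonal than below it (34).

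The place of the strongest peak along a gene was taken from the order of its peaks, for genes with 3 or more. In the control list the smallest p belonged to the most 3' peak in 10 of 23 genes of the group (43.5%, against 38.9% of all genes) and to the most 5' peak in 2 (8.70%, against 16.3%). In the knockout list it was the most 3' peak in 9 of 25 (against 36.8% of all genes) and the most 5' peak in 1 (4.00%, against 20.6%), Kdm5d. The shares at the 3' end were near those of all genes. Nsd1, Nsd2, Ash1l, Kdm4b and Setd1a had their strongest peak at the 3' end in both lists.

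Peaks without counterpart could also be placed relative to the peaks their gene had in the other list. Over all genes, 53.7% of such knockout peaks lay 5' of every control peak of the gene, and 26.8% of such control peaks lay 5' of every knockout peak. In the group it was 11 of 27 knockout peaks (40.7%, 22.4 to 61.2) and 11 of 26 control peaks (42.3%, 23.4 to 63.1), 6 of the latter in Kmt2c. On the 3' side it was 10 of 27 knockout peaks (37.0%, against 25.8% of all) and 4 of 26 control peaks (15.4%, 4.36 to 34.9, against 46.0% of all). The 4 were in Ezh2, Kdm3b, Nsd3 and Setd7. The 5' knockout peaks included those of Dot1l, Kmt5b, Kmt5a, Kdm3a, Kdm5b, Setd3 and Setd5.

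In the control list 18 of 148 peaks of the group (12.2%, against 15.1% of all control peaks) had a fold and a p that at least 10 peaks of the list shared exactly, and none of them had a log10 q below -6.52. The pair of fold 17.6 and log10 q -3.75 was carried by a peak of Kdm7a, of Kdm5d and of Kmt2a, and by 102 control peaks in all. In the knockout list it was 18 of 153 (11.8%, against 17.7%), and the fold of 14.1 of Setd4 was shared with Kmt2b and 171 peaks in all. Neighbouring recurring folds from 8 upwards were 0.8 apart in the control and 0.9 apart in the knockout list (medians over 40 and 44 values). The folds of these weak peaks, such as that of Kdm7a, thus came in steps. Among such values were the knockout fold of 26.3 at the 5' peak of Kdm2b (31 knockout peaks). Both folds of the overlapped Ezh2 peaks were as well, 18.4 (72 control peaks) and 6.10 (18 knockout peaks).

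Partners of these enzymes were read from lists of 59 genes that are no members. Peaks were listed for both genotypes in 51 of them, for the control alone in 2, for the knockout alone in 1 and for neither in 5. Over all genes with a peak in either list, 77.6% had peaks in both, 10.5% in the control alone and 11.9% in the knockout alone. That base leaves out genes without a peak, such as these 5. All 10 PRC2 partners of Ezh1 and Ezh2 looked for, among them Eed, Suz12 and Jarid2, had peaks in both lists, and 0 of their 13 control and 3 of their 15 knockout peaks were unshared, against 23.9% and 24.5% of all. For partners of the KMT2 and SETD1 complexes it was 7 of 27 and 0 of 24, for those of DOT1L 5 of 23 and 5 of 24, and for those in H3K9 methylation 5 of 15 in each list. For other lysine methyltransferases it was 6 of 24 and 4 of 23, and for other JmjC genes and LSD1 partners 6 of 22 in each list. Rbbp5, a core subunit shared by the KMT2 and SETD1 complexes, had 2 control peaks (fold 4.33 and 3.02, log10 q -17.2 and -6.44) and no knockout peak, while Wdr5 and Dpy30 of the same core had none in either list. Setmar, another methyltransferase gene, had 2 weak control peaks, and Phf8, a JmjC demethylase gene, 1 weak knockout peak (log10 q -2.13). Of strong peaks of partner genes, 3 of 58 in the control and 0 of 49 in the knockout list had no counterpart, against 8.72% and 4.04% of all strong peaks. Among cardiomyocyte markers it was 11 of 38 strong control and 2 of 29 strong knockout peaks. Among fibroblast markers it was 0 of 5 and 3 of 10, among endothelial markers 0 of 5 and 2 of 8, and among smooth muscle and pericyte markers 0 of 13 and 1 of 14. Of immune markers no strong peak was unshared (0 of 3 in each list), and Ptprc and Cd68 had no peak. The part that cell composition has in the counts of the group was not tested.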

How the data were processed

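Fragmented RNA (about 100 nt) of the pooled hearts was incubated with an antibody against m6A, and IP and input were read as 150-base pairs, per the labels' protocols. Peak calling by the authors used exomePeak 2.16.0 on IP and matched input with a q threshold of 0.05, and HOMER 4.9.1 served for motifs, per the series' design text. fastp 0.19.11, BWA 0.7.12 and GRCm39 are named in the submitters' processing notes. For every peak the deposited score column gives a p-value. The authors' log10 p and log10 q were handled as a score, as some values are minus infinity. The authors' fold is the linear ratio between IP and input. Starts are printed 1-based.

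Samples were grouped by the genotype label, which the knockout titles abbreviate differently. Overlaps, shares with exact (Clopper-Pearson) intervals and figures were computed with Python 3.11.15, numpy 2.4.6, pandas 2.3.3, scipy 1.17.1 and matplotlib 3.10.9. The overlap code was run on 19795 control peaks and a copy of them, shifted by less than a peak's width or moved to made-up chromosome names. It found 100% of kept peaks and 0% of moved ones. Both outcomes were fixed by this design, so the run does not test the handling of strand or of partial overlaps. RefSeq (GRCm38.p6) served for symbols and gene types only. Peak sequences and transcript regions were not analysed here. Members, role and partner lists and the strong threshold were chosen with earlier results of these data known. The text gives values for genes or strong peaks in 1 list only, the 3 genes with most peaks per role, the highest fold per list, Wtap and partner genes in 1 list only. Other genes of the group named with values were chosen after these were seen. Alternatives were other q, fold and strength thresholds, other overlap rules, equal list lengths and leaving out genes. Results for 1 marker list are not reported here.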

Additional observations from a re-analysis of the deposited data

How the results depend on the processing

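Of 82 alternative values of the 4 shares and 2 gene counts, 74 stayed within the interval of the main share or within 1.5 times the main count, and 8 did not. Part of the 74 could not have moved. The 2 gene counts do not depend on the overlap rule, and 1 planned removal took out no gene. The 74 are therefore no measure of how stable the results are. With a fold of at least 4, the share of control peaks without counterpart was 28.7%, and that of strong control peaks 14.1%. With 50% of both peaks required to overlap, these were 30.4% and 9.09%, and that of knockout peaks was 32.7%. The share over all control peaks also went up under both settings, to 31.6% and 38.5%. With q at or under 0.001, 10.8% of knockout peaks lacked a counterpart (22.2% of all), 6 genes were in the control list only and 1 in the knockout list only. For these gene counts the share over all genes was not computed. At a strong threshold of 1e-05, 4 of 105 strong control and 2 of 88 strong knockout peaks had none, and at 1e-20 0 of 57 and 0 of 41. Equal list lengths (20766 peaks) moved none of the 6 results that far. Overlap without strand or by whole spans moved none of the 4 shares that far, and could not move the gene counts. Leaving out Kmt2c, Setd1a, Setd3 and Kmt2e, or Kdm5c, Kdm5d and Kdm6a, which were chosen after seeing the data, did not either, but without Kmt2c the interval of the control share fell below the share of all peaks. The planned removal of Nsdhl and the like took out no gene, so it tests nothing, though its values are counted among the 74. No paired analysis was possible because each genotype has 1 pooled library pair. Unknown depth limits every statement that a peak is missing.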
